A study of Rattus norvegicus with 6 samples.

Results

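The proteasome and chaperonin genes were examined as a group of accessible chromatin sites in rat pancreatic islets, the endocrine cell clusters that hold the insulin-producing β-cells. A site was a member when the gene name listed for it began with Psma, Psmb, Psmc, Psmd, Psme or Psmg followed by a digit, was Tcp1, or began with Cct followed by a digit. This rule took 200 of the 101603 distinct sites and 51 of the 13829 gene names. It left out the 11 entries of the Tcp11 family, which are not chaperonin genes, and it kept Psmc3ip, a meiotic recombination protein that shares only the letters of its name. Chromatin accessibility had been measured by ATAC-seq, in which the Tn5 transposase cuts and tags open DNA, in islets of adult rats and of pups at postnatal day 10 (P10). The 3 adult libraries, numbered 4 to 6, came from 3 single male Sprague–Dawley rats of about 3 months, and the 3 P10 libraries, numbered 1 to 3, came from male and female Sprague–Dawley pups of 3 litters with pancreases pooled before digestion. The labels name no transgene and no treatment for either age. The comparison asked which sites differed in accessibility between immature and mature islets, and age, sex and single rats against pooled pups cannot be told apart in it.

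The proteasome is the barrel-shaped protease that destroys ubiquitin-tagged proteins. Its 20S core is built of outer rings of alpha subunits and inner rings of beta subunits, and Psmb5, Psmb6 and Psmb7 carry the cutting sites. A 19S cap, with a ring of ATPases and a lid, recognises and unfolds the substrate. The chaperonin CCT, also called TRiC, is a double ring encoded by Tcp1 and the Cct genes that folds actin, tubulin and other newly made proteins. Both machines are present in every cell, and in insulin-secreting cells they work beside the secretory pathway, whose misfolded products are sent to the proteasome. When proteasome activity falls short, the factor Nfe2l1 is known to raise the transcription of proteasome subunits together through antioxidant response elements in their promoters.

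The libraries held 7916919 to 21168463 integrations in sites, with 7916919 to 11903909 in adults and 13491534 to 21168463 at P10, so the adult libraries were the shallower ones. Values are given as integrations in the site per 1000000 in all sites (CPM) after scaling for library composition. Each change is a log2 fold change with a positive sign where adults were higher, and a site was called when the edgeR quasi-likelihood test gave p below 0.05 and an adjusted p below 0.2, the limits of the study. These p-values measure the spread between these 3 and 3 samples. In islets taken whole, fewer cells of a type and less accessibility per cell cannot be told apart. The starts of the islet genes Ins1, Ins2, Gcg and Iapp all had TSS-class sites. The β-cell markers Slc2a2, Mafa and G6pc2 and the alpha-cell marker Ttr had none.

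At their gene starts few members were called different between the ages. A site lay in the TSS class when its listed distance, which runs from the first base of the site to the annotated transcription start, was within 1000 bp, and 45 member genes had 1 such site each. None of the 45 was called higher in adults by edgeR and 3 were called lower, those of Psmd11, Psmd5 and Psma1. Over all 11055 TSS-class sites the shares called were 2.73% higher and 7.87% lower, so 3 of 45 lower was close to that background. An unadjusted p below 0.05 occurred at 4 member starts, all lower in adults, against 12.7% of all TSS-class sites, and DESeq2 and limma voom also called no member start higher. The median log2 fold change was -0.11 for the members, with an interquartile range of -0.20 to 0.05, and -0.10 for all TSS-class sites. Among the members 64.4% lay below 0, against 65.6% of all TSS-class sites. The estimates were narrow: the 95% interval stayed inside a 2-fold change in either direction at 43 of 45 member starts, compared with 85.2% of all TSS-class sites. The groups did not overlap at 9 member starts, with all adults above at 3 (Psmc2, Psmd14 and Psmg4) and all adults below at 6 (Psmd11, Psma1, Psmd9, Psmb2, Psmb6 and Psme4), where the background was 5.24% above and 15.6% below. The count of 3 lower starts moved with the processing. It was 6 with column sums as the scaling and 1 with scaling on TSS-class sites or with the adjusted p below 0.05, and without Adult 6, P10 1 or P10 2 it was 1. The TSS-class site of Psmd11, which lay inside the gene and did not cover its start, was called under every one of these settings.

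**Figure D1:**
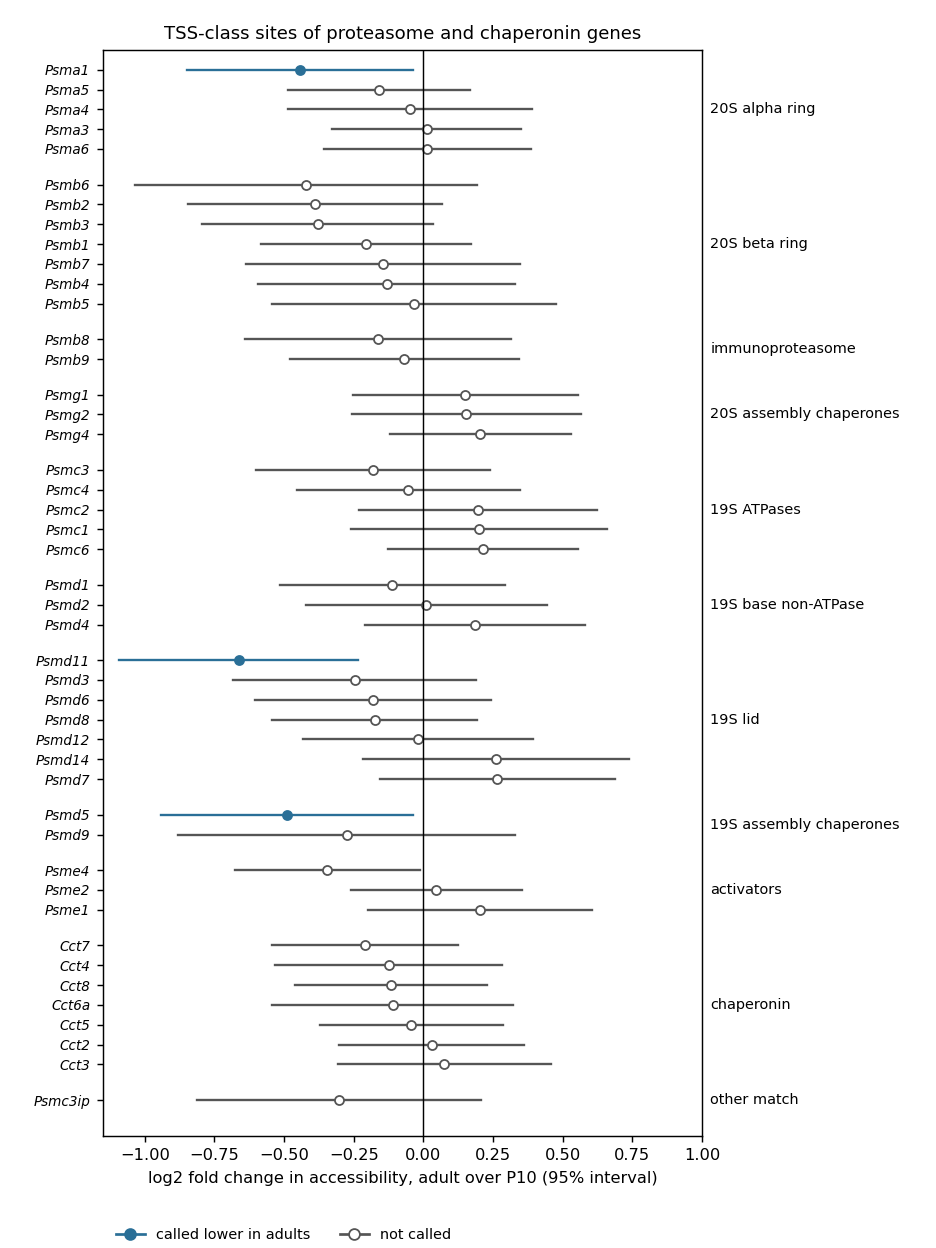
Log2 fold change of each of the 45 TSS-class member sites, adult over P10, with its 95% interval from the edgeR fit, grouped by the role of the protein. Filled blue points mark the 3 sites called lower in adults, and open points the 42 sites that were not called.

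The genes of the 3 called TSS-class sites encode proteins of different parts of the proteasome. Psmd11 encodes a scaffold subunit of the lid, Psmd5 an assembly chaperone that holds part of the ATPase ring before the cap is built, and Psma1 a subunit of the alpha ring. The 250 bases before their starts are shown, from RefSeq's GRCr8 assembly, because these genes had a called TSS-class site. The called Psmd11 site began 362 bp inside the annotated gene. The bases shown for Psmd11 therefore lie before its start and outside that site. The promoters of 2 uncalled genes stand beside them: Psmb6, which carries a match to the antioxidant response element core, and Cct3, the chaperonin start with the most matches. Capitals mark matches to 6 short promoter words on either strand, which are spelled out further on. The stretches are chr10:65932093-65932342 on the plus strand for Psmd11, chr3:38548491-38548740 on the minus strand for Psmd5, chr1:177887858-177888107 on the minus strand for Psma1, chr10:55737638-55737887 on the plus strand for Psmb6 and chr2:176063279-176063528 on the plus strand for Cct3.
Psmd11: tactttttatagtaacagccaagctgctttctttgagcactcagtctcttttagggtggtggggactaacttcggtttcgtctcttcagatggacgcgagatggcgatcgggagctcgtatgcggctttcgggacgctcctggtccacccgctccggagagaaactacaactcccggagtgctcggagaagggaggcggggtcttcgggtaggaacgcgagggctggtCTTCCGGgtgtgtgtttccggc
Psmd5: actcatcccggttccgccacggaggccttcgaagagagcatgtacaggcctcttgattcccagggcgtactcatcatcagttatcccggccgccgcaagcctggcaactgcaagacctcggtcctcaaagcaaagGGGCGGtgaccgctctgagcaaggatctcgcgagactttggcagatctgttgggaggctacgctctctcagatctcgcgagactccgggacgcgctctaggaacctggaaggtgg
Psma1: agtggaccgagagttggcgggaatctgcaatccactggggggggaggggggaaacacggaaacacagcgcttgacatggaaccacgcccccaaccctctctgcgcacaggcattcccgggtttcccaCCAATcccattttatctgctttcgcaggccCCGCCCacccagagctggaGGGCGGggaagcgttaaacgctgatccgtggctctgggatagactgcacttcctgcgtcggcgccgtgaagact
Psmb6: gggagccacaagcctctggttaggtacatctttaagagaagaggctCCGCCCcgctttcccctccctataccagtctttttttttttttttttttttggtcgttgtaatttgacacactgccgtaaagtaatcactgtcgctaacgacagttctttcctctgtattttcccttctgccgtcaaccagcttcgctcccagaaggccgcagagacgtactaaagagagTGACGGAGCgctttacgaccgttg
Cct3: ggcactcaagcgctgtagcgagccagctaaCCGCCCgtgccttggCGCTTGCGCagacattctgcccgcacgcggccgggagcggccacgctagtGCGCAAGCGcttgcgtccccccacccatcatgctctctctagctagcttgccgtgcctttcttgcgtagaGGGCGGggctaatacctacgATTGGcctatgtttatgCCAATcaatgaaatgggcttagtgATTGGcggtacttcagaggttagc
In Psmd11 the capitals show an ETS core, in Psmd5 a GC box, and in Psma1 a CCAAT box followed by a pair of GC boxes. Psmb6 has a GC box far from the start and the antioxidant response element core close to it. Cct3 has 3 CCAAT boxes, 2 GC boxes and 2 nuclear respiratory factor 1 cores.

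The Psmd11 site (Rn5 chromosome 10, 67465575 to 67466239) began 362 bp inside the annotated gene. It measured 11.4, 9.93 and 10.3 CPM in Adult 4, 5 and 6 and 17.8, 16.7 and 15.6 CPM in P10 1, 2 and 3, so the groups did not overlap and each was tight. Adults averaged 10.5 ± 0.754 CPM (SD, n = 3) and pups 16.7 ± 1.13 CPM. The log2 fold change was -0.66 with a standard error of 0.21 and an adjusted p of 0.0440 by edgeR's quasi-likelihood test. Across the leave-one-out and other settings it ran from -0.79 to -0.57.

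The Psma1 site (Rn5 chromosome 1, 190719247 to 190720089) covered the gene start. It measured 21.7, 16.8 and 13.8 CPM in the adults and 24.96, 24.0 and 22.4 CPM in the pups, with Adult 4 just under the lowest pup library. The log2 fold change was -0.44 with a standard error of 0.20 and an adjusted p of 0.187 by edgeR. This call was kept in 1 of the 6 leave-one-out fits, that without Adult 4.

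Psmd5 carried both directions of change within its first stretch of gene. The TSS site (Rn5 chromosome 3, 19252828 to 19253293) measured 12.4, 14.02 and 9.93 CPM in the adults and 18.96, 19.3 and 13.005 CPM in the pups, and P10 3 fell among the adult values. Its log2 fold change was -0.49 with a standard error of 0.22 and an adjusted p of 0.191 by edgeR, and the call was kept in 2 of the 6 leave-one-out fits, those without Adult 5 or P10 3. The other Psmd5 site (Rn5 chromosome 3, 19251828 to 19252170) lay inside the gene, 657 bp from the TSS site. It measured 20.7, 18.4 and 12.8 CPM in the adults and 11.9, 9.06 and 7.19 CPM in the pups, and every adult library was above every pup library. There the log2 fold change was 0.88 with a standard error of 0.24 and an adjusted p of 0.0157 by edgeR, a call kept in each of the 6 leave-one-out fits. The ratio of the intragenic count to the TSS count in the same library needs no scaling between libraries. It was taken after both calls had been seen, so it describes them and is no separate test of them. It was 1.67, 1.31 and 1.29 in the adults and 0.630, 0.470 and 0.553 in the pups, or 1.42 ± 0.215 against 0.551 ± 0.0798 (SD, n = 3 each). The intragenic site was the more accessible of the pair in all 3 adult libraries, and the TSS site in all 3 pup libraries.

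**Figure D2:**
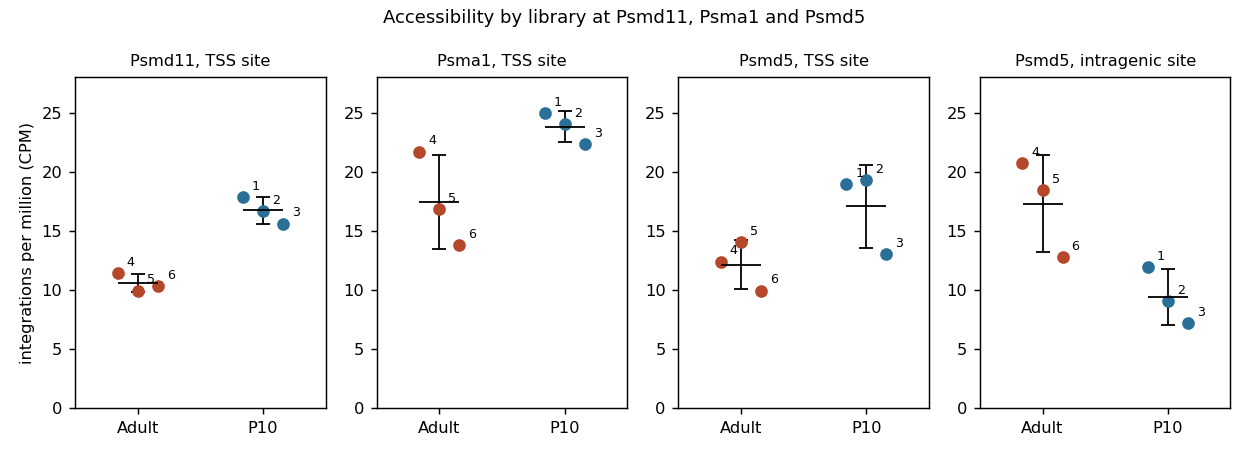
CPM in each library at the TSS-class sites of Psmd11, Psma1 and Psmd5 and at the intragenic Psmd5 site, with points numbered by library and the mean and SD of 3 libraries per age. Adult points lie below all P10 points at Psmd11 and Psma1, overlap them at the Psmd5 TSS site, and lie above them at the intragenic Psmd5 site.

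Among the 20S core genes, the alpha ring had 5 TSS-class sites, of Psma1, Psma3, Psma4, Psma5 and Psma6, and apart from Psma1 their log2 fold changes lay between -0.16 and 0.01. Psma5, the most accessible alpha start, measured 54.5, 47.4 and 45.6 CPM in the adults and 62.9, 52.9 and 49.1 CPM in the pups, a log2 fold change of -0.16 with overlapping groups. Psma3 measured 56.2, 42.7 and 42.2 CPM against 52.7, 45.0 and 42.3 CPM, and the sign of its difference of 0.01 changed with the scaling.

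All 7 beta ring starts had estimates below 0, from -0.42 at Psmb6 to -0.03 at Psmb5, where 65.6% of all TSS-class sites lay below 0. Without Adult 6, 5 of the 7 stayed below 0, and without Adult 5, P10 1 or P10 3, 6 did. EdgeR, DESeq2 and limma voom called none of them, and none had an unadjusted p below 0.05. With column sums 2 of the 7 were called lower, those of Psmb2 and Psmb3, and with scaling on TSS-class sites 6 of the 7 stayed below 0, with Psmb5 at 0.04. Psmb6, the caspase-like catalytic subunit, was among the least accessible of all members, at 3.34, 3.51 and 3.48 CPM in the adults and 3.90, 5.78 and 4.23 CPM in the pups. The groups did not overlap there, and the 95% interval of -1.03 to 0.19 was the widest of the member starts. Psmb5, the chymotrypsin-like subunit, measured 11.9, 8.28 and 6.96 CPM against 8.51, 8.34 and 11.1 CPM, and Psmb7, the trypsin-like subunit, 10.1, 9.54 and 6.32 CPM against 9.44, 9.99 and 9.52 CPM. Both had groups that overlapped.

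In the immunoproteasome, interferon-inducible subunits replace these 3 catalytic ones: Psmb9 takes the place of Psmb6, Psmb8 that of Psmb5 and Psmb10 that of Psmb7. The Psmb9 start measured 27.8, 22.2 and 21.5 CPM in the adults and 32.1, 24.2 and 18.9 CPM in the pups, a log2 fold change of -0.07 (95% interval -0.48 to 0.34). The Psmb8 site, upstream of its gene, measured 10.8, 9.93 and 9.02 CPM against 12.6, 12.3 and 8.41 CPM, a log2 fold change of -0.16 (95% interval -0.64 to 0.31). Psmb10 had no TSS-class site. Its single site lay inside the gene at a listed distance of 1428 bp, with its nearer edge 773 bp from the start. It measured 34.2, 27.6 and 28.2 CPM against 31.0, 26.8 and 20.3 CPM and differed by 0.21 on the log2 scale, with an adjusted p of 0.594 by edgeR. None of these was called, and the replacements and the constitutive subunits overlapped between ages alike except at Psmb6. The one immune marker with a TSS-class site, the MHC class II invariant chain gene Cd74, was higher in adults, at 31.7 ± 5.18 CPM against 16.6 ± 0.903 CPM (log2 fold change 0.93, adjusted p = 0.00136 by edgeR). The immune list held 8 genes, of which 1 had a TSS-class site and 7 had none (Ptprc, Cd68, Csf1r, Spi1, Lcp1, Aif1 and Ciita). Its summed level over all its sites, the Cd74 start included, was 79.1 to 103.9 CPM in the adults and 72.2 to 83.2 CPM in the pups. Of its 12 sites outside the TSS class 1 was called higher and 2 lower, with a median log2 fold change of -0.05. Over all such sites 13.5% were higher and 6.48% lower. The part of immune cells in the immunoproteasome values was not tested.

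The assembly chaperones of the core, Psmg1, Psmg2 and Psmg4, help the alpha ring form. Their TSS-class sites had log2 fold changes of 0.15, 0.15 and 0.20, above 0 under every scaling tried, and Psmg2 fell below 0 without Adult 4. Psmg4 measured 49.1, 43.1 and 54.7 CPM in the adults and 42.9, 41.7 and 42.8 CPM in the pups, with every adult library above every pup library by a narrow margin. None of the 3 was called, and none had an unadjusted p below 0.05.

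In the 19S cap, the 5 ATPase starts of Psmc1, Psmc2, Psmc3, Psmc4 and Psmc6 ranged from -0.18 to 0.21 and none was called. Psmc2 was the steadiest in the adults, at 13.8, 14.1 and 13.7 CPM against 12.5, 12.6 and 11.3 CPM, and its groups did not overlap although the difference of 0.19 on the log2 scale was not called (edgeR adjusted p = 0.667). The non-ATPase subunits of the base, Psmd1 and Psmd2, the large scaffold proteins, and Psmd4, a ubiquitin receptor, ranged from -0.11 to 0.18. The lid held the widest span of the groups, from -0.66 at Psmd11 to 0.27 at Psmd7. Psmd14, the deubiquitinating enzyme of the lid, measured 9.49, 9.74 and 10.6 CPM in the adults and 7.39, 7.99 and 9.46 CPM in the pups, just without overlap, and its log2 fold change of 0.26 was not called. Psmd9, which like Psmd5 is a chaperone of cap assembly, had the lowest level of all member starts, 3.98, 3.99 and 2.84 CPM against 4.51, 4.56 and 4.12 CPM, and was not called at -0.28.

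The activators bind the ends of the core in place of the 19S cap. Psme2, a subunit of the interferon-inducible PA28 activator, had the most accessible start of all members. It measured 116, 103 and 90.6 CPM in the adults and 114, 97.9 and 88.9 CPM in the pups, so the spread among libraries of an age exceeded the difference, a log2 fold change of 0.05 (95% interval -0.26 to 0.35). Its partner Psme1 measured 33.3, 34.2 and 22.6 CPM against 32.5, 24.96 and 20.99 CPM, a log2 fold change of 0.20. Psme4, the large nuclear activator PA200, lay just outside the limits for a call: it measured 46.3, 37.0 and 37.3 CPM against 54.7, 47.0 and 51.5 CPM without overlap, with a log2 fold change of -0.34 and an adjusted p of 0.213 by edgeR. Limma voom called it, as did the median-of-ratios scaling.

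No chaperonin site was called. The 7 TSS-class sites of the group had a median log2 fold change of -0.11, all 7 intervals stayed inside 2-fold, and none had an unadjusted p below 0.05. Over all 24 chaperonin sites edgeR, DESeq2 and limma voom called none, with 1 site at an unadjusted p below 0.05, where 12.3% of all sites were called higher, 6.63% lower and 21.1% had such a p. At most 2 of the 17 sites outside the TSS class were called under any setting, without Adult 5. Cct2 was the steadiest, at 36.1, 36.3 and 37.0 CPM in the adults and 37.3, 36.5 and 33.5 CPM in the pups. Cct3 measured 45.5, 41.4 and 29.3 CPM against 40.5, 41.7 and 28.4 CPM, with Adult 6 and P10 3 low. Cct4 measured 18.3, 13.8 and 17.8 CPM against 18.4, 17.6 and 18.4 CPM, the lowest level of the group.

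The widest chaperonin start, that of Cct7 at 1478 bp, measured 56.7, 46.9 and 38.9 CPM in the adults and 57.8, 55.9 and 51.5 CPM in the pups, with a log2 fold change of -0.21. The Cct5 site measured 50.3, 40.8 and 45.6 CPM against 51.1, 46.5 and 43.3 CPM, and it also holds the start of Fam173b. The Cct6a site measured 30.2, 21.9 and 14.4 CPM against 25.6, 23.3 and 23.4 CPM, so the adults spread to both sides of the pups, and Cct8 measured 36.8, 34.5 and 28.7 CPM against 38.8, 34.7 and 35.0 CPM. Cct2, Cct3, Cct5 and Cct6a changed sign between scalings or left-out libraries. The start of Tcp1, the founding subunit, lay inside a TSS-class site listed to Mrpl18, the gene that runs the other way. That site measured 70.1, 57.3 and 53.8 CPM in the adults and 69.1, 53.6 and 57.6 CPM in the pups, a log2 fold change of 0.01. The start of Cct6b, the testis form of Cct6a, lay in a site listed to Zfp830, with a log2 fold change of -0.33 and an adjusted p of 0.379 by edgeR.

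Of the other members without a TSS-class site of their own, the start of Psma7 lay in a site listed to Ss18l1, which measured 19.5 ± 3.69 CPM in the adults and 23.7 ± 1.24 CPM in the pups and was not called. Psma8, the testis alpha subunit, and Psmb11, the thymus catalytic subunit, had no listed site within 1000 bp of their starts. Psma2, Psmc5, Psmd10, Psmd13, Psme3 and Psmg3 were not analysed here.

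Taken as levels per kb of site, which allows genes to be compared, the member starts spanned a 6.33-fold range. Psme2 led at 71.5 CPM per kb, followed by Psma5 at 68.2, Psma3 at 58.0, Psmg4 at 53.1 and Cct3 at 48.2 CPM per kb. The lowest were Psmd9 at 11.3, Psmb6 at 13.8 and Psmb5 at 14.1 CPM per kb, leaving aside Psmc3ip. Of the 44 pairs of neighbours in this order, 2 differed by more than the pooled SD of their 6 libraries, Psma5 over Psma3 and Psmb6 over Psmd9. The median member start had 27.2 CPM per kb and a width of 763 bp, against 24.4 CPM per kb and 667 bp over all TSS-class sites, and 91.1% of member sites covered the annotated start itself against 77.1%. The members' share of all integrations in TSS-class sites was 0.430%, 0.416% and 0.387% in the adults and 0.439%, 0.409% and 0.390% in the pups. The means of 0.411 ± 0.0221% and 0.413 ± 0.0248% (n = 3 each) differed by less than their SDs, while TSS-class sites as a whole took 25.5 ± 0.858% of integrations in adults and 28.2 ± 0.664% at P10.

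**Figure D3:**
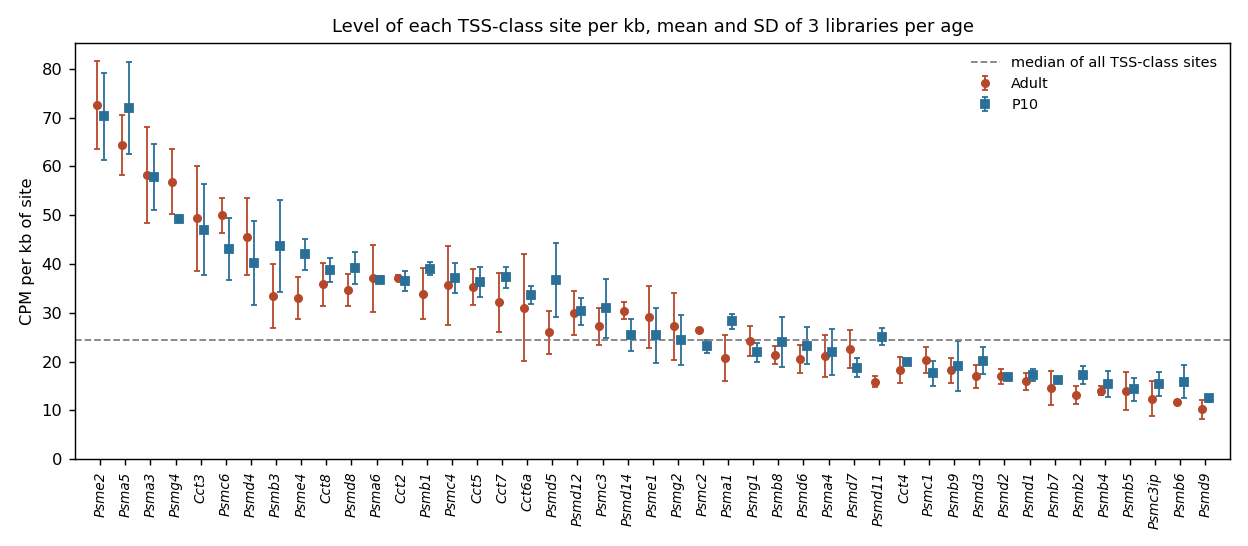
CPM per kb at each of the 45 TSS-class member sites, ordered by the mean of all libraries, with mean and SD of 3 libraries per age and a dashed line at 24.4 CPM per kb, the median of all TSS-class sites. Adult and P10 values run side by side from Psme2 at 71.5 down to Psmd9 at 11.3 CPM per kb.

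In the promoters of these genes the GC box and the ETS core were more frequent than over all promoters. RefSeq's promoter table held 44 of the 50 proteasome and chaperonin genes. Psma3, Psma7, Psmb11, Psmd6, Psmd12 and Psmd14 were not matched. Each word was searched on both strands in the 250 bases before the start, and overlapping matches were all counted. The GC box GGGCGG, the site of Sp1-like factors, occurred in 30 of 44 member promoters, or 68.2%, against 30.5% of all 33469 promoters in the table. The ETS core CCGGAAG occurred in 12 of 44, or 27.3%, against 7.27%. The CCAAT box, with the letters CCAAT, occurred in 18 of 44, or 40.9%, against 34.0%, and in 5 of 9 chaperonin promoters. The antioxidant response element core TGACNNNGC occurred in 8 of 44, or 18.2%, against 10.1%. These 8 were Psmb2, Psmb5, Psmb6, Psmd1, Psmd9, Psme4, Cct4 and Cct6a. None of their starts was called by edgeR, where 2.73% of all TSS-class sites were called higher and 7.87% lower. Limma voom called Psme4 lower, and Psmb2 was called lower with column sums. The nuclear respiratory factor 1 core GCGCANGCG occurred in 4 of 44 and the heat shock element core GAANNTTC in 3 of 44, against 5.09% and 7.23% of all promoters. Member promoters were richer in GC, with a median of 57.4% against 51.2%, and held a median of 15.5 CpG dinucleotides against 5. The comparison was with all promoters in the table and not with those of like GC content. These promoters were not selected by gene type or by accessibility in islets. The part of GC content in the word shares was not tested. A match is a description of letters and not a bound site. A second gene started within 500 bp in the opposite direction at 7 of 44 member starts, or 15.9%, against 11.4% of all, and Tcp1 with Mrpl18 and Psmb9 with the peptide transporter gene Tap1 were among them.

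**Figure D4:**
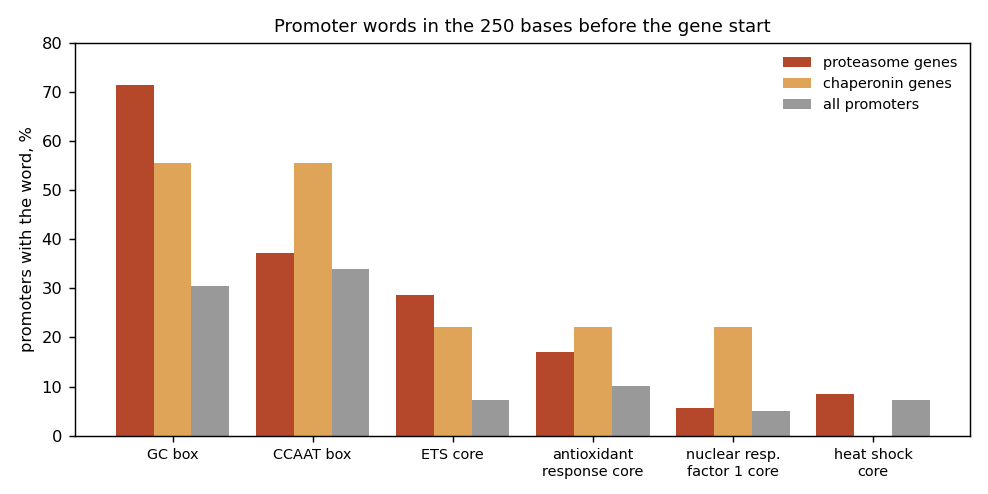
Share of promoters, in percent, that hold each of 6 words in the 250 bases before the gene start, for 35 proteasome genes, 9 chaperonin genes and all 33469 promoters. The GC box stands at 71.4% and 55.6% against 30.5%, and the ETS core at 28.6% and 22.2% against 7.27%.

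Away from the gene starts, members were called at rates near those of the whole table. Of the 155 sites outside the TSS class, 17 were called higher in adults and 10 lower, or 11.0% and 6.45%, against 13.5% and 6.48% of all 90548 such sites. Distances of these sites are given to the nearer edge of the gene. Over all 200 member sites 17 were higher and 13 lower, where 12.3% and 6.63% of all sites were. The median log2 fold change of these 155 sites was -0.02 and that of all sites outside the TSS class 0.01. Precision was lower than at the starts: the median count was 68.8 per library against 264 at member starts, and 91 of 155 intervals stayed inside 2-fold (49.5% of all sites outside the TSS class). The count of member sites called lower in adults was the less stable one. It was 5 without Adult 6, 3 without P10 2, 8 without P10 3, 23 with column sums and 5 with scaling on TSS-class sites. The count called higher was 11 without P10 2. Over the whole table the split of calls moved in the same way, from 12504 higher and 6738 lower to 10447 and 10732 with column sums and to 15804 and 4414 with scaling on TSS-class sites. In all, 19 of 51 member genes, or 37.3%, had a called site, against 49.0% of all gene names. Of these, 8 had only higher calls, 7 only lower calls and 4 both (Psma7, Psmd14, Psmd7 and Psmd5).

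The member sites with the most stable calls lay near Psma7, Psmb1, Psmb7, Psmc1, Psmd7 and Psmg1, besides the Psmd5 and Psmd11 sites above. These 10 sites kept their calls in every leave-one-out fit and under the other settings alike. Downstream of Psmb1, a beta ring subunit, 3 sites were higher in adults. The site at Rn5 chromosome 1, 58348264 to 58348837, 50401 bp from the gene, measured 33.3, 23.9 and 33.8 CPM in the adults and 17.4, 12.7 and 14.7 CPM in the pups, a log2 fold change of 1.02 with a standard error of 0.20 and an adjusted p of 0.00103 by edgeR. Its neighbour, at 58346506 to 58346829, measured 10.1, 9.06 and 11.99 CPM against 6.28, 3.28 and 3.86 CPM, a log2 fold change of 1.20. Neither pair of groups overlapped. The Psmb1 start itself stood at 22.01 ± 3.403 CPM in adults and 25.4 ± 0.906 CPM at P10 and was not called, so the sites downstream moved without a called change at the start. The third site, 66751 bp away, rose by 0.55 on the log2 scale, a call lost in 3 of the 6 leave-one-out fits.

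Inside Psmb7, whose product is the trypsin-like subunit, 2 sites were higher in adults. At chromosome 3, 28151806 to 28152323, the adults measured 8.04, 10.9 and 7.73 CPM and the pups 5.39, 4.92 and 4.55 CPM, a log2 fold change of 0.85. At 28116629 to 28116898, near the far end of the gene, the adults measured 8.31, 8.38 and 4.25 CPM and the pups 4.09, 2.78 and 3.86 CPM, a log2 fold change of 0.97 that was lost without P10 2. Upstream of Psmc1, an ATPase, the site 11058 bp away measured 8.77, 9.35 and 10.2 CPM against 3.81, 5.28 and 6.24 CPM, a log2 fold change of 0.88. Downstream of Psmg1, the site 5499 bp away measured 8.49, 7.79 and 7.61 CPM against 5.90, 2.50 and 2.59 CPM, a log2 fold change of 1.10. In each case all adult libraries stood above all pup libraries.

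Psma7, which encodes an alpha subunit, carried the largest number of sites, 22, of which 17 lay more than 100 kb from the gene and the farthest 698972 bp. Both directions occurred along this stretch of chromosome 3. At 480673 bp the site measured 13.6, 8.28 and 7.22 CPM in the adults and 3.997, 2.35 and 2.48 CPM in the pups, a log2 fold change of 1.71 with a standard error of 0.30 and an adjusted p of 0.000323 by edgeR, the largest increase among the members. At 461123 bp the log2 fold change was 0.75, at 279724 bp -0.92 and at 112688 bp -0.76. The call at 461123 bp was lost without Adult 4 or P10 3, and that at 112688 bp without Adult 4 or Adult 6. The site at 279724 bp measured 11.2, 10.4 and 7.22 CPM against 21.2, 18.7 and 15.1 CPM, with no overlap. In RefSeq's GRCr8 order the genes next to Psma7 on 1 side are Lsm14b, Taf4 and the cadherin gene Cdh4. No entry analysed here names any of the 3, so the name Psma7 on the far sites is the nearest name in the list and need not be the nearest gene. Psmd7, a lid subunit, had the same setting: 6 of its 8 sites lay more than 100 kb away, on the side where Rps20l3 and the homeobox gene Zfhx3 follow in GRCr8 and are named by no entry analysed here. At 534235 bp its site measured 20.6, 15.0 and 18.3 CPM in the adults and 10.9, 10.4 and 11.9 CPM in the pups, a log2 fold change of 0.70, and at 164783 bp 2.08, 2.24 and 1.16 CPM against 2.28, 4.21 and 4.07 CPM, a log2 fold change of -0.91. The call at 164783 bp was lost with limma voom and without Adult 6, P10 2 or P10 3. Of the 51 member genes 27 had such an unnamed neighbour, and 26 of the 27 member sites beyond 100 kb belonged to them. Psma7 held 17 of these sites and Psmd7 6. Of the 117 member sites beyond 10 kb, 74 belonged to genes with an unnamed neighbour.

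**Figure D5:**
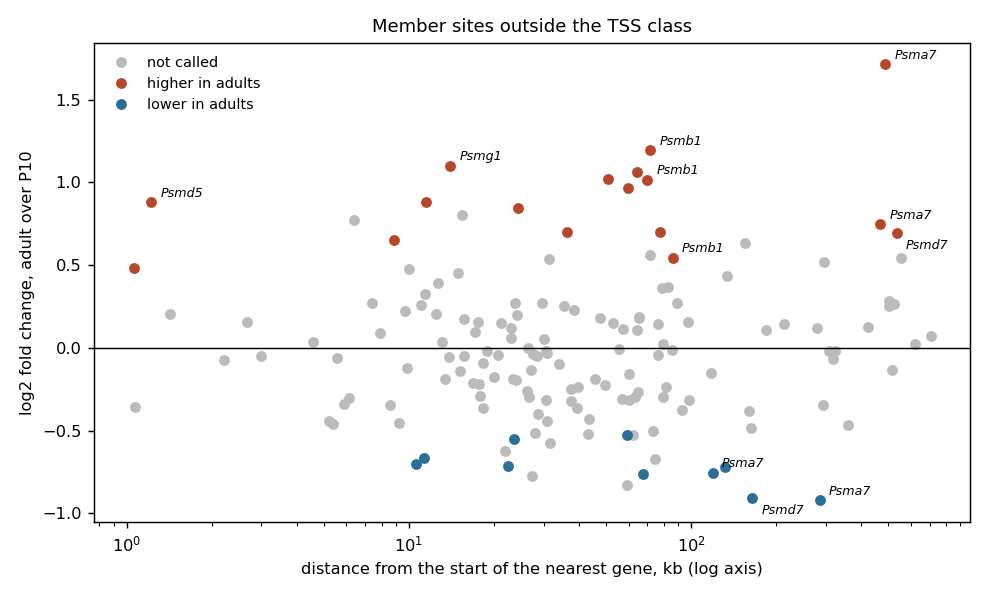
Log2 fold change, adult over P10, of the 155 member sites outside the TSS class against the distance in kb from the start of the listed gene (log axis), with the 17 called higher in red and the 10 called lower in blue. Called sites occur at all distances from about 1 kb to over 100 kb, with the highest, 1.71, listed to Psma7.

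The other called sites were of smaller or less stable difference. Higher in adults were a site 12457 bp downstream of Psma8, with a log2 fold change of 0.70, a site 55623 bp downstream of Psmd6, with 1.06, and sites near Psma6 with 1.02 and 0.70. The Psmd6 call rested on Adult 4, which measured 13.9 CPM beside 5.94 and 7.22 CPM in the other adults, and without it the log2 fold change was 0.59 and not called. The Psma8 call was lost without Adult 6. The first Psma6 call was lost without Adult 5, P10 1 or P10 2, and the second without Adult 4, P10 2 or P10 3. Just upstream of Psmc6, a site next to the start measured 18.2, 11.7 and 16.8 CPM against 11.2, 10.3 and 11.6 CPM, a log2 fold change of 0.49, kept in 1 of the 6 leave-one-out fits, that without Adult 5. Near Psmd14 a proximal site was higher at 0.65 and a distal one lower at -0.53, and each call was kept in 2 of those fits. Lower in adults were a site downstream of Psmc2 with -0.55, 2 adjoining sites upstream of Psmd12 with -0.67 and -0.70, and sites near Psmd9 with -0.72, near Psmg4 with -0.76 and inside Psme4 with -0.71. Each of these 6 was lost in 3 or more of the leave-one-out fits, that without P10 2 among them every time.

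The rest of the pathway was read from a list of 41 other gene names of ubiquitin supply, proteasome regulation and chaperonin support. Sem1 and Shfm1, both in the list, name the same gene. Of the 41 names, 32 had a site and 26 a TSS-class site. Of their 31 TSS-class sites none was called higher by edgeR and 6 were lower in adults, where 2.73% and 7.87% of all TSS-class sites were. Among their 194 other sites 35 were higher and 7 lower, where 13.5% and 6.48% of all such sites were. Among the lower starts were those of Uba1, the ubiquitin-activating enzyme (log2 fold change -1.05), Ubqln2, a shuttle that brings substrates to the proteasome (-0.47), Ddi2, the protease that activates Nfe2l1 (-0.49), and Hspa4, a chaperone cofactor (-0.43). Uba1 measured 3.47 ± 0.438 CPM in adults and 7.23 ± 1.80 CPM at P10 without overlap. Uba1 and Ubqln2 lie on chromosome X, and the pups were of both sexes while the adults were male, so age and sex cannot be told apart there. The start of Nfe2l2, a relative of Nfe2l1, stood at 54.4 ± 7.78 CPM against 60.2 ± 4.21 CPM and was not called.

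Markers of the cell types in the islet preparation gave the following counts at TSS-class sites. Lower in adults were 2 of 5 β-cell sites (Ins1 and Ins2), 2 of 3 delta-cell sites (both of Hhex), 2 of 3 duct sites (Sox9 and Cftr) and 1 of 6 proliferation sites (Plk1). None of 3 alpha-cell, 3 acinar, 2 endothelial and 4 mesenchymal sites was called, and 7.87% of all TSS-class sites were lower. Outside the TSS class 13.5% of all sites were called higher and 6.48% lower. For these lists, 11 of 75 β-cell sites were higher and 9 lower, and 9 and 2 of 50 alpha-cell sites. The counts were 1 and 1 of 7 for delta cells, 4 and 2 of 29 for duct and 4 and 4 of 48 for acinar cells. They were 9 and 2 of 53 for endothelium, 3 and 4 of 39 for mesenchyme and 3 and 1 of 19 for proliferation. The summed level of duct starts was 17.5 to 20.2 CPM in the adults and 24.7 to 34.4 CPM in the pups, but over all duct sites it was higher in the adults, 207.7 to 242.5 CPM against 175.4 to 194.1 CPM. Over all their sites the alpha-cell, acinar, endothelial and mesenchymal lists were likewise higher in every adult library than in every pup library. The β-cell, delta-cell, proliferation and immune lists overlapped between the ages. The part of these cell types in the called member sites was not tested.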

How the data were processed

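ATAC-seq was performed on dissociated, unsorted islet cells of 3 adult and 3 P10 samples. The authors aligned reads to Rn5 with BWA 0.7.13, discarded mitochondrial and low-quality reads, called peaks with MACS2 2.1.1 on the concatenated libraries of each age and deposited raw counts of Tn5 integrations per site and library, with the nearest gene and its distance. Whether PCR duplicates were removed is not stated. Intervals and tests rest on the spread between libraries, and the part of duplicates in the counts was not tested. The deposited table also holds the authors' own comparison (fold change, mean level, test statistic, p-value and adjusted p), which was not used.

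From the 101941 entries, 338 repeats of a site listed with more than 1 gene were merged. All 101603 sites entered one fit of edgeR 4.0.16 (glmQLFit and glmQLFTest, TMM normalization, age as the only term, no filter) in R 4.3.3, with Benjamini-Hochberg adjustment over all sites. Standard errors were the log2 fold change divided by the square root of F, and 95% intervals used the fit's degrees of freedom. Members, role groups, the other lists and the promoter words were chosen with earlier results of these data known, and part of the processing followed an earlier analysis of them. Named in full were every called member site, the member starts with the 5 highest and 3 lowest mean CPM, the immunoproteasome and PA28 starts beside their constitutive partners, every chaperonin start, and members with no TSS-class site. Further values were chosen after they were seen. Gene order and promoters came from RefSeq's GRCr8, whose coordinates were not mixed with Rn5. No sequence was read from the sites themselves. The values of 1 gene of the pathway list are not reported here, although its sites stayed in the counts of that list.

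The fit was tested on simulated data with 200 of 101603 sites changed by log2 1. Of these 200, 89.5% had p below 0.05 in the right direction and 39.5% were called, and 29 unchanged sites were called. Far more sites were called in the data, and the adjusted p depends on that share. The simulated call rates are therefore not those of the fit to the data. Alternatives were the median-of-ratios scaling of DESeq2, column sums, TMM on TSS-class sites, DESeq2 1.42.0, limma 3.58.1 voom, filterByExpr, an adjusted p below 0.05, every listed entry kept, and each library left out in turn. Cyclic loess with limma-trend was added after the data were seen.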

Additional observations from a re-analysis of the deposited data

How the results depend on the processing

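No paired analysis was possible because the replicate numbers of the adults (4 to 6) and of the pups (1 to 3) are not shared. The 30 called member sites kept their direction under all 15 alternatives, and 10 of them were called under every one. With column sums, 23 member sites were called lower, 6 of them TSS-class, and 10732 sites in all. With scaling on TSS-class sites these counts were 5, 1 and 4414. With cyclic loess, added after the data were seen, 26 and 6 were called lower. With an adjusted p below 0.05, 11 member sites were higher and 2 lower, 1 of them TSS-class, and 7177 and 1945 in all. Leaving out each library in turn gave 11 to 21 member sites higher and 3 to 14 lower, 1 to 4 TSS-class sites lower, 7973 to 13232 sites higher and 3285 to 7215 lower in all, with P10 2 giving the lowest counts over all sites, and medians of the member starts of -0.20 to -0.02. None of the member starts was called higher under any alternative. Some uncalled starts changed sign. Psma3 stood at -0.0021 with median-of-ratios scaling and with DESeq2, -0.086 with column sums and -0.059 with cyclic loess. Psme2 (-0.048), Cct2 (-0.064) and Cct3 (-0.021) fell below 0 with column sums, and Cct2 (-0.045) and Cct3 (-0.0081) with cyclic loess. Psmb5 (0.039), Cct5 (0.050) and Psmb9 (0.028) rose above 0 with scaling on TSS-class sites. With libraries left out, Psma3 ran from -0.14 to 0.096, Psme2 from -0.047 to 0.14, Psmb5 from -0.29 to 0.12, Psmb7 from -0.27 to 0.029, Psmb9 from -0.25 to 0.14, Cct2 from -0.028 to 0.050, Cct3 from -0.097 to 0.24, Cct5 from -0.12 to 0.032 and Cct6a from -0.40 to 0.11. The cause was not tested. The adult libraries were the shallower ones, and how far this limited the precision at distal sites was not tested.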
